A study of Mus musculus with 10 samples.

Results

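Matrix proteases, their inhibitors and genes of tissue remodelling were followed in lung eosinophils of mice with allergic airway inflammation. They are the 10 genes Adam8, Adam10, Adam17, Adam19, Mmp9, Mmp25, Timp1, Timp2, Plaur and Thbs1, taken by symbol from a deposited count table of 35725 gene rows. All 10 had a row and all 10 passed the filter on low counts, which kept 15586 genes. The groups were P2ry14-null mice (5 libraries) and wild-type mice of strain C57BL/6J (WT, 5 libraries), all male. The product of P2ry14 is a receptor that senses UDP-glucose and other UDP-sugars through Gi proteins, and the comparison asked how its absence bears on eosinophil transcripts. Mice of both groups were sensitized by instillation into the oropharynx, on a pair of occasions, with 50 µg ovalbumin plus 20 µg protease of Aspergillus oryzae. They inhaled a 1% ovalbumin aerosol 7 days after the last instillation, and lung eosinophils were collected by flow cytometric sorting 16 h later. The labels give neither the age of the mice, nor how the null allele was made, nor whether each library came from a separate animal, so the p-values reflect variation among these libraries, part or all of which may be technical.

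Libraries held 67.2 to 151 M reads (M, 1e+06) in P2ry14-null and 118 to 185 M reads in WT. P2ry14 itself stood at 21.8 to 24.2 counts per 1e+06 reads (CPM) in P2ry14-null libraries, against 190 to 229 CPM in WT libraries. Eosinophil identity was checked with 8 defining genes, among them the lectin Siglecf, the eotaxin receptor Ccr3 and the granule protein Prg2. Their summed level was 8498 to 9137 CPM in P2ry14-null and 8484 to 8979 CPM in WT. The largest part was the lipoxygenase gene Alox15, at 4875 to 5236 CPM in P2ry14-null and 4465 to 5227 CPM in WT. Epx, Ear1 and Ear2 had at most 35.7 CPM in any library. P2ry14-null library 2 stood apart in markers of other lung cells. Its 8 alveolar macrophage markers summed to 2155 CPM, against 725 to 847 CPM in the other P2ry14-null libraries and 773 to 998 CPM in WT. Most of this sum was Chil3, at 1520 CPM there, 235 to 363 CPM in the other P2ry14-null libraries and 302 to 524 CPM in WT. Car4 followed, at 590 CPM there, 448 to 482 CPM in the other P2ry14-null libraries and 404 to 562 CPM in WT. Marco was not highest there, at 0.078 CPM against 0.142 CPM in WT library 2. The 7 epithelial markers of P2ry14-null library 2 summed to 78.3 CPM, against 10.2 to 23.6 CPM in the other P2ry14-null libraries and 17.2 to 31.0 CPM in WT.

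ADAM proteins are membrane-anchored metalloproteases that cut other membrane proteins close to the cell surface, a step called shedding, and matrix metalloproteinases (MMPs) digest collagen, gelatin and other proteins of the extracellular matrix. Tissue inhibitors of metalloproteinases (TIMPs) bind their active sites. The urokinase receptor gathers plasminogen activation at the cell surface, and thrombospondin-1 is a matricellular glycoprotein able to activate latent TGF-β. In asthma, airway remodelling includes deposition and turnover of matrix beneath the epithelium, and eosinophils are among its sources of proteases and TGF-β.

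Promoter sequence is shown for 4 of the 10 genes: Adam8, the gene with the highest level per length, Timp1, the lowest, and Mmp25 and Plaur, the 2 whose unadjusted p was under 0.05. Each line gives the 250 bases before the RefSeq transcription start site on the GRCm38.p6 assembly, read 5′ to 3′ on the gene's strand. The deposited span of Plaur begins at 24460937 and that of Adam8, on the minus strand, at 139993121. The windows of Plaur and Adam8 therefore lie inside the spans of these genes in the count table. Capitals mark matches, on either strand, to any of 6 motifs. The AP-1 motif was searched as TGANTCA and that of NF-kB as its usual consensus of 10 letters. The GATA motif was spelled AGATAA, and the motif of the myeloid factor PU.1 was GAGGAAGT. The GC box was searched with the letters GGGCGG, and the TATA box was searched with the letters TATAAA.
Adam8, chr7:139992563-139992812, minus strand: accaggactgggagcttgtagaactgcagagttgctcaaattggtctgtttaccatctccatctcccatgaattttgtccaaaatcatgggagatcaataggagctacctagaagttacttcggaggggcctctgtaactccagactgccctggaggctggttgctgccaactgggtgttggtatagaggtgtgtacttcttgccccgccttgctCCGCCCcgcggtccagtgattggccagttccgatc
Mmp25, chr17:23645270-23645519, minus strand: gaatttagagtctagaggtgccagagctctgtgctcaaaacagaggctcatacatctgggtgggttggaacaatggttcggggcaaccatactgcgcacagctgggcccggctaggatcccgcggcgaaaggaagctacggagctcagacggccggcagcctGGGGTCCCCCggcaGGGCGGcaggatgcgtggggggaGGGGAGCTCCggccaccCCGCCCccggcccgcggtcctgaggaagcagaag
Plaur, chr7:24462233-24462482, plus strand: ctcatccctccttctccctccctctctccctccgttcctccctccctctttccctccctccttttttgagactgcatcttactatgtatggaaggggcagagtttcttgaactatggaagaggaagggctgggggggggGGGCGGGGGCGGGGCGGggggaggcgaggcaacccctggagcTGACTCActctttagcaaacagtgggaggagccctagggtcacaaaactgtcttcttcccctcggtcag
Timp1, chrX:20869916-20870165, plus strand: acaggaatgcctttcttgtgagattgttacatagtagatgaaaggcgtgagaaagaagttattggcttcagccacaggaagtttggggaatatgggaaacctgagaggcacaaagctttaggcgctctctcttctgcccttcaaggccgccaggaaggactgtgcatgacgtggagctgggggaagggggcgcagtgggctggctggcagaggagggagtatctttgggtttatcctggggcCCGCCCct
The Adam8 and Timp1 windows held 1 match each, a GC box. The Plaur window held 3 GC boxes, 2 of which share a base, and 1 AP-1 match. The Mmp25 window held 2 GC boxes and 2 NF-kB matches that overlap none of the other motifs. Over all 32841 RefSeq windows of this length, 32.7% held a GC box, 6.75% an AP-1 match and 7.25% an NF-kB match. The other 3 motifs were found in none of these 4 windows, while 9.99% of all windows held the GATA motif, 12.4% the TATA box and 2.44% the PU.1 motif. These matches describe letters and do not show binding. For 8 of the 10 genes the RefSeq table held a window.

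The 10 genes spanned a wide range of levels. Levels between genes are given per length, as TMM-scaled reads per kilobase of exon per 1e+06 reads (RPKM), with exon lengths from GENCODE vM21. Adam8 averaged 441 RPKM in P2ry14-null and 478 RPKM in WT, rank 72 of the 14084 tested genes with a length. Thbs1 averaged 391 RPKM in P2ry14-null and 471 in WT (rank 76). Plaur stood at 243 RPKM in P2ry14-null and 283 in WT (rank 135), and Adam19 at 222 RPKM in P2ry14-null and 230 in WT (rank 159). The granulocyte protease gene Mmp25 stood at 150 RPKM in P2ry14-null and 137 in WT (rank 280). Mmp9 stood at 88.9 RPKM in P2ry14-null and 86.6 in WT (rank 476). Below them came Timp2 at 38.6 RPKM in P2ry14-null and 37.9 in WT, Adam10 at 26.7 in P2ry14-null and 25.3 in WT, and Adam17 at 14 in P2ry14-null and 13.9 in WT. Timp1 was far lower, at 0.915 RPKM in P2ry14-null and 0.753 in WT (rank 9633), 15.3-fold below Adam17 in P2ry14-null and 18.5-fold below it in WT.

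Some neighbours in this order overlapped. Adam8 exceeded Thbs1 in 5 of 5 P2ry14-null libraries and in 2 of 5 WT libraries, and their ranges overlapped in both groups. The ranges of Plaur and Adam19 also overlapped in both groups, although Plaur was above Adam19 within each of the 10 libraries. Thbs1 and Plaur overlapped in WT but not in P2ry14-null. Each further step down, from Adam19 to Mmp25 and on to Timp1, had no overlap in either group.

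No member passed the test between genotypes. With edgeR's quasi-likelihood test and Benjamini-Hochberg adjustment over all genes, 0 of 10 passed 0.05 (each adjusted p = 0.999), where 0.0385% of all genes tested were called (6 genes). DESeq2 also called 0 of 10, against 0.116% of the 16357 genes to which it gave an adjusted p. At an unadjusted p under 0.05, edgeR and DESeq2 each had 2 of 10, Mmp25 above 0 and Plaur below 0. With single libraries left out this edgeR count ran from 1 to 4: Mmp25 was not among them without P2ry14-null library 1 or 2 or WT library 1 or 2, nor Plaur without P2ry14-null library 3, 4 or 5 or WT library 1 or 4. Without WT library 3 the 4 were Adam8, Adam10, Mmp25 and Plaur, and without WT library 1 the 1 was Thbs1. Over all genes and with all libraries edgeR gave 4.13%, with 1.46% higher and 2.67% lower. The share of all genes was not counted with single libraries left out, nor for DESeq2 at this unadjusted p. In 0 of 10 members did the P2ry14-null libraries lie wholly apart from the WT libraries, while 0.648% of all genes did. The median log2 fold change of the members was 0.02 (P2ry14-null minus WT), and that of all genes was 0.003. With single libraries left out the members' median ran from -0.03 without P2ry14-null library 2 to 0.03 without P2ry14-null library 5.

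**Figure D1:**
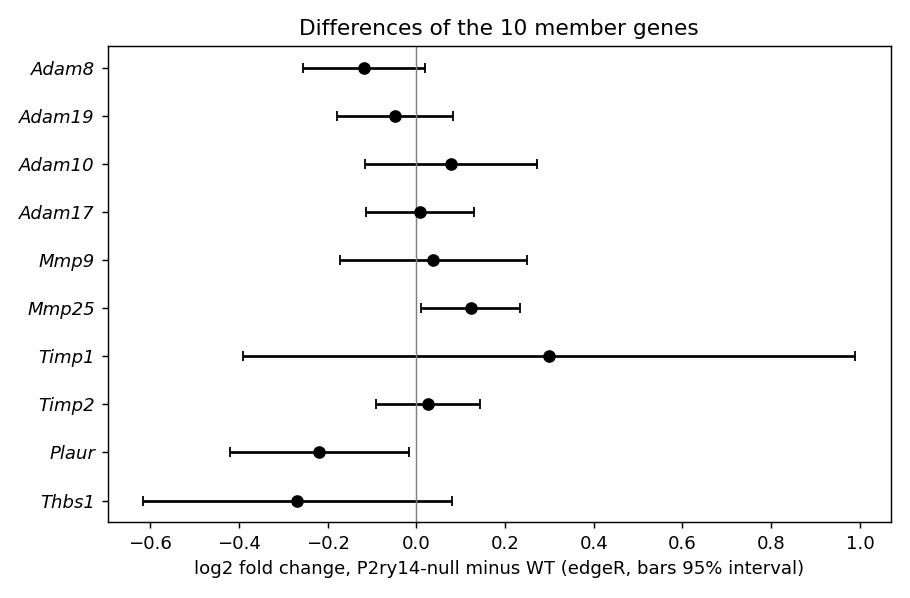
Log2 fold change of each of the 10 genes (x axis, P2ry14-null minus WT, edgeR) with its 95% interval as bars, n = 5 libraries per group. The intervals of Mmp25 (0.01 to 0.23) and Plaur (-0.42 to -0.02) leave out 0 before any adjustment, and Timp1 has the widest interval, -0.39 to 0.99.

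ADAM10 and ADAM17 are the main sheddases of many cells, and ADAM17 is the converting enzyme of tumour necrosis factor. Adam10 had 135, 130, 132, 137 and 122 CPM in P2ry14-null libraries 1 to 5, against 123, 106, 158, 112 and 122 CPM in WT libraries 1 to 5. The highest and the lowest Adam10 values were both in WT, so the P2ry14-null values lay inside the WT range. The log2 fold change was 0.08 ± 0.09 (SE), with an interval of 0.923-fold to 1.21-fold. Without WT library 3, the highest, it was 0.18 (edgeR unadjusted p = 0.0075, adjusted p = 0.443), and without WT library 2, the lowest, it was 0.03 (edgeR unadjusted p = 0.77).

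Adam17 had 99.4, 99.9, 104, 99.4 and 98.0 CPM in P2ry14-null libraries, against 101, 91.5, 113, 92.3 and 100 CPM in WT libraries. P2ry14-null values again fell within the WT range, and WT library 3 was highest here too. The log2 fold change was 0.01 ± 0.06, and its 95% interval ran from 0.925-fold to 1.09-fold. Leaving out WT library 2 or 4 turned its sign (-0.02 and -0.01). Within libraries, the log2 ratio of Adam10 to Adam17 reads averaged 0.388 ± 0.063 in P2ry14-null and 0.310 ± 0.101 in WT (SD, n = 5 each). This difference of 0.079 did not pass a two-sided exact permutation test (p = 0.190, adjusted p = 0.381 over the 4 ratios tested). Without WT library 3 it was 0.121 (exact permutation p = 0.016, adjusted p = 0.063).

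No partner gene of either sheddase passed. Of 9 listed partner genes 6 were tested and 0 passed (edgeR unadjusted p under 0.05 in 0 of the 6). Their median log2 fold change was 0.003, and it ran from -0.01 without WT library 3 to 0.03 without P2ry14-null library 4. Rhbdf2, encoding the iRhom2 protein that carries ADAM17 to the surface, averaged 146 ± 8.79 CPM in P2ry14-null and 145 ± 4.17 CPM in WT. The tetraspanin Tspan14, which binds ADAM10, had a log2 fold change of -0.01 ± 0.04, Tspan17 one of -0.02 ± 0.05 and Tspan5 one of 0.05 ± 0.04. Furin, the convertase that removes the inhibitory propeptide of many ADAMs, averaged 734 ± 37.1 CPM in P2ry14-null and 773 ± 20.0 CPM in WT (log2 -0.08 ± 0.05), and the related convertase Pcsk7 had a log2 fold change of 0.01 ± 0.04.

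Among genes for proteins that ADAM10 or ADAM17 can shed, 21 of 24 were tested and 0 passed, with a median log2 fold change of -0.03, which was -0.09 without P2ry14-null library 2 and 0.02 without WT library 4. Tnf, Icam1 and Hbegf were the 3 with an unadjusted p under 0.05, all below 0. At this p edgeR had 4.13% of all genes, 2.67% lower and 1.46% higher. Tnf had 24.7, 20.2, 21.1, 20.5 and 18.3 CPM in P2ry14-null, against 24.3, 23.7, 25.6, 37.9 and 25.1 CPM in WT. The groups overlapped through P2ry14-null library 1, and WT library 4 was far above the rest (log2 -0.39 ± 0.12; edgeR unadjusted p = 0.0079, adjusted p = 0.999). The most abundant per length were the hyaluronan receptor Cd44 (135 RPKM in P2ry14-null and 138 in WT), Csf1r (77.1 RPKM in P2ry14-null and 74.8 in WT) and Notch1 (60.3 RPKM in P2ry14-null and 59.4 in WT).

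ADAM8 is a protease of granulocytes and macrophages that rises in mouse airways under allergen exposure, and ADAM19 (meltrin β) is a sheddase best known from heart and nerve development in mice. Adam8 had 2118, 1924, 2070, 2090 and 2018 CPM in P2ry14-null libraries, against 2104, 2245, 2020, 2555 and 2162 CPM in WT libraries. All 5 P2ry14-null values lay below the WT mean, but the groups overlapped, and WT library 4 was the highest. The means were 2044 ± 76.4 CPM in P2ry14-null and 2217 ± 206 CPM in WT (SD, n = 5 each), a log2 fold change of -0.12 ± 0.06 with an interval of 0.838-fold to 1.01-fold. Without WT library 4 the value was -0.06.

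Adam19 had 1483, 1633, 1586, 1629 and 1572 CPM in P2ry14-null libraries, against 1436, 1799, 1604, 1676 and 1654 CPM in WT libraries. The P2ry14-null values lay inside the WT range. The log2 fold change was -0.05 ± 0.06, with an interval of 0.884-fold to 1.06-fold. Leaving out WT library 1 gave -0.09, and leaving out WT library 2 gave -0.01.

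The remaining ADAM family was mostly low: of 13 listed genes 10 were tested, and besides the members Adamdec1, a secreted ADAM-like protease, was the most abundant with 53.8 RPKM in P2ry14-null and 53.9 in WT. Adam15 stood at 8.63 RPKM in P2ry14-null and 9.15 in WT, and Adam9 at 6.96 RPKM in P2ry14-null and 7.23 in WT. Adam11, at 0.16 CPM in P2ry14-null and 0.093 CPM in WT, had the smallest p of the rest (unadjusted 0.19, edgeR). None of the 10 passed, with 0 at an unadjusted p under 0.05 and a median log2 fold change of -0.03, which ran from -0.07 without P2ry14-null library 2 to 0.01 without WT library 1.

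MMP9, or gelatinase B, degrades gelatin and type IV collagen of basement membranes. Mmp9 had 360, 248, 321, 335 and 309 CPM in P2ry14-null libraries, against 340, 299, 271, 345 and 277 CPM in WT libraries. The highest and the lowest values were both P2ry14-null, in libraries 1 and 2. The mean was 315 ± 41.7 CPM in P2ry14-null and 306 ± 34.7 CPM in WT, a log2 fold change of 0.04 ± 0.10. Leaving out P2ry14-null library 1 or WT library 3 turned its sign (-0.01 and -0.003).

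MMP25 (MT6-MMP) is anchored in the membrane by a glycolipid and is known from neutrophils. Mmp25 had 807, 804, 814, 765 and 776 CPM in P2ry14-null libraries, against 670, 692, 760, 747 and 776 CPM in WT libraries. All 5 P2ry14-null values were above the WT mean, and the groups overlapped between 765 and 776 CPM. The mean was 793 ± 21.5 CPM in P2ry14-null and 729 ± 45.8 CPM in WT, a log2 fold change of 0.12 ± 0.05 (edgeR unadjusted p = 0.033, adjusted p = 0.999). Its interval, 1.01-fold to 1.18-fold, leaves out changes above 1.18-fold.

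Neutrophil markers are given beside both MMP genes, since neutrophils express them. The 12 markers summed to 3699 to 5397 CPM in P2ry14-null and 3702 to 4642 CPM in WT, most of it Retnlg (3408 to 5104 CPM in P2ry14-null and 3414 to 4376 CPM in WT). Of the 12, 9 were tested, 8 had a log2 fold change above 0 and 0 passed. The median of all genes was 0.003, and the share of all genes above 0 was not counted. Some neutrophil granule genes were near 0: Elane had no reads in any library, and Mpo and Camp had at most 0.05 CPM. Others had reads in every library. Ngp had 3.98 to 9.93 CPM in P2ry14-null and 3.42 to 5.18 CPM in WT. Ltf had 2.40 to 3.70 CPM in P2ry14-null and 2.31 to 4.01 CPM in WT. Lcn2 had 0.205 to 1.46 CPM in P2ry14-null and 0.243 to 0.633 CPM in WT. Ly6g had 1.22 to 2.18 CPM in P2ry14-null and 0.98 to 1.38 CPM in WT. S100a8 had 0.951 to 4.65 CPM in P2ry14-null and 0.754 to 1.23 CPM in WT. The chemokine receptor gene Cxcr2 had 107 to 158 CPM in P2ry14-null and 111 to 156 CPM in WT. S100a9, a calprotectin subunit, had 96.9 to 167 CPM in P2ry14-null and 97.0 to 132 CPM in WT. The part of neutrophils in the Mmp9 and Mmp25 values was not tested.

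The other matrix metalloproteinases were scarce. Of 23 listed MMP genes 13 were tested, and Mmp9 and Mmp25 were the 2 above 10 RPKM. Mmp12, the macrophage elastase, came next with 2.93 RPKM in P2ry14-null and 2.64 in WT, and 52.9 CPM of it lay in P2ry14-null library 2 against 8.19 to 16.9 CPM in the other P2ry14-null libraries and 13.4 to 25.8 CPM in WT. Mmp14 showed the same library apart, with 7.03 CPM there against 0.955 to 1.90 CPM in the other P2ry14-null libraries and 0.998 to 1.5 CPM in WT. Mmp27 was at 1.64 RPKM in P2ry14-null and 2.0 in WT, and gelatinase A (Mmp2) at 1.5 RPKM in P2ry14-null and 1.43 in WT. Mmp8, the neutrophil collagenase, was at 0.52 RPKM in P2ry14-null and 0.50 in WT. None of the 13 passed, and 1, Mmp25, had an unadjusted p under 0.05. Their median log2 fold change was 0.07 with all libraries; leaving out P2ry14-null library 2 gave -0.13, and leaving out library 3 of the same group gave 0.17. In the ADAMTS family, 7 of 19 genes were tested, 0 passed and 1 (Adamts9) had an unadjusted p under 0.05. The median of the 7 was -0.12, -0.01 without P2ry14-null library 2, and 0.34 over the 18 fitted without the low-count filter. Adamts10 was the sole ADAMTS gene above 10 RPKM, with 10.7 in P2ry14-null and 11 in WT, while Adamts6 stood at 0.138 RPKM in P2ry14-null and 0.122 in WT, and Adamts14 at 0.067 RPKM in P2ry14-null and 0.082 in WT.

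**Figure D2:**
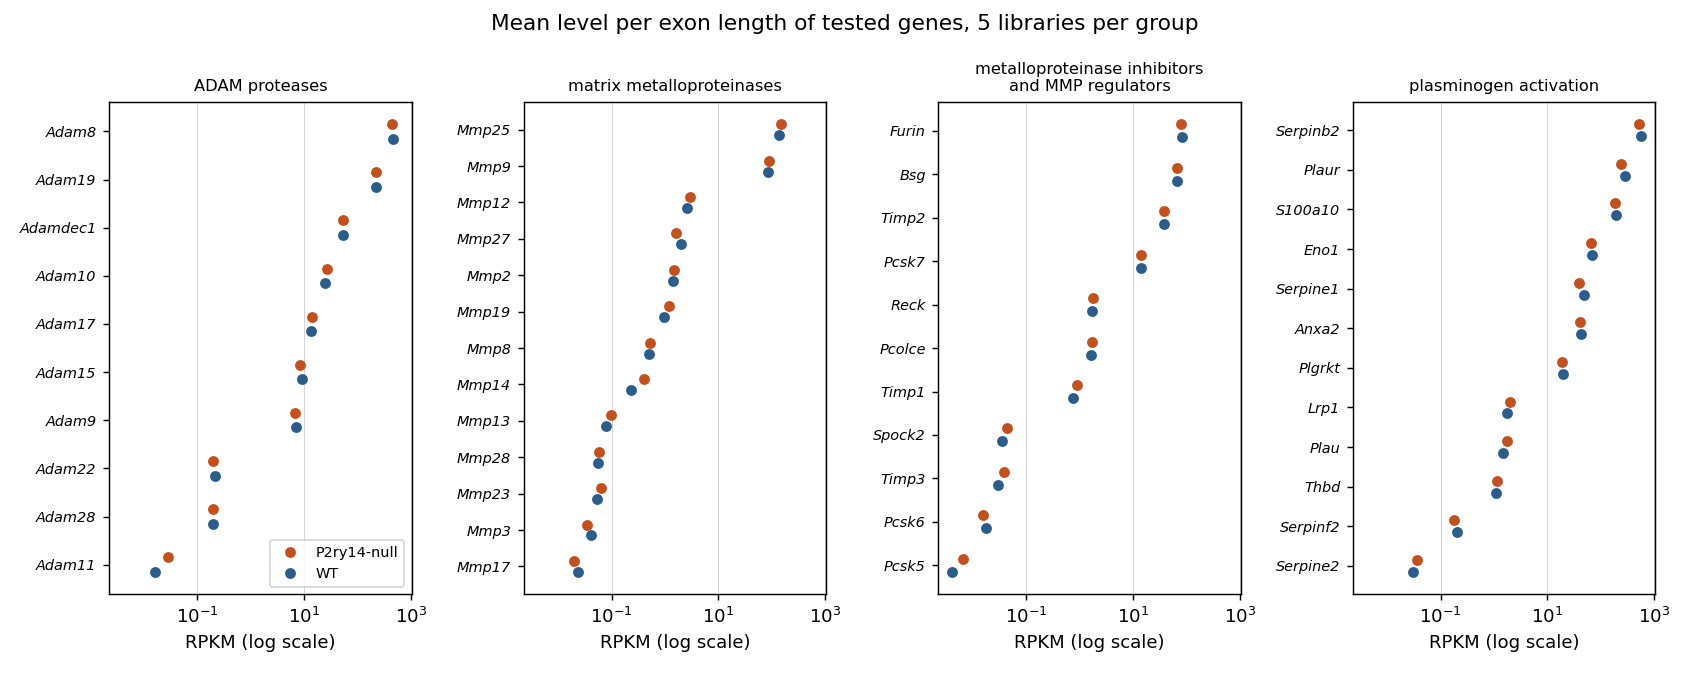
Mean level per exon length (x axis, RPKM on a log scale) of every tested gene in 4 lists, P2ry14-null drawn above WT for each gene. Adam8, Adam19, Mmp25, Mmp9, Plaur and Serpinb2 stand at the upper end of their lists, and Timp1 lies below 1 RPKM in both groups.

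TIMP-1 and TIMP-2 inhibit most MMPs, and TIMP-2 also takes part in the activation of pro-MMP2. Timp2 had 160, 158, 138, 157 and 140 CPM in P2ry14-null libraries, against 156, 146, 147, 141 and 149 CPM in WT libraries. P2ry14-null values fell on both sides of the WT range, and the log2 fold change was 0.03 ± 0.05 (0.940-fold to 1.10-fold). Leaving out P2ry14-null library 1 gave 0.003, and leaving out P2ry14-null library 3 gave 0.06. Timp1 had 0.652, 1.67, 0.754, 0.521 and 0.462 CPM in P2ry14-null libraries, against 0.884, 0.703, 0.480, 0.569 and 0.707 CPM in WT libraries. These values rest on 44 to 258 reads per P2ry14-null library and 84 to 116 reads per WT library. P2ry14-null library 2 was the highest of the 10, P2ry14-null library 5 was the lowest, and the other 3 P2ry14-null libraries lay among the WT values. The log2 fold change was 0.30 ± 0.32 with all libraries and -0.16 ± 0.20 without P2ry14-null library 2. That library is also the one with the highest sums of alveolar macrophage and epithelial markers, and the part of these cells in the Timp1 value was not tested. In bulk libraries, fewer cells of a type and less RNA per cell cannot be told apart.

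Protease and inhibitor were also set against each other within each library, which needs no scaling between libraries. Reads of Mmp9 exceeded those of Timp1 by a mean log2 ratio of 8.74 ± 0.90 in P2ry14-null and 8.86 ± 0.31 in WT (SD, n = 5 each). The difference, -0.11, did not pass (exact permutation p = 0.921, adjusted p = 0.921). The log2 ratio of Timp1 to Timp2 was -7.69 ± 0.70 in P2ry14-null and -7.81 ± 0.30 in WT, a difference of 0.12 (exact permutation p = 0.810, adjusted p = 0.921). P2ry14-null library 2 was the extreme in both, at 7.21 and -6.56. Without it the differences were 0.27 and -0.16. The remaining regulators were also tested: of 13 genes in the inhibitor and regulator list 11 were tested and 0 passed, with 0 at an unadjusted p under 0.05 and a median log2 fold change of 0.09. This median was 0.01 without P2ry14-null library 2, and 0.02 over the 6 that had 1 CPM in 5 libraries. Basigin (Bsg), an inducer of MMPs, stood at 66.2 RPKM in P2ry14-null and 68.0 in WT, while Timp3 averaged 0.308 CPM in P2ry14-null and 0.238 CPM in WT.

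**Figure D3:**
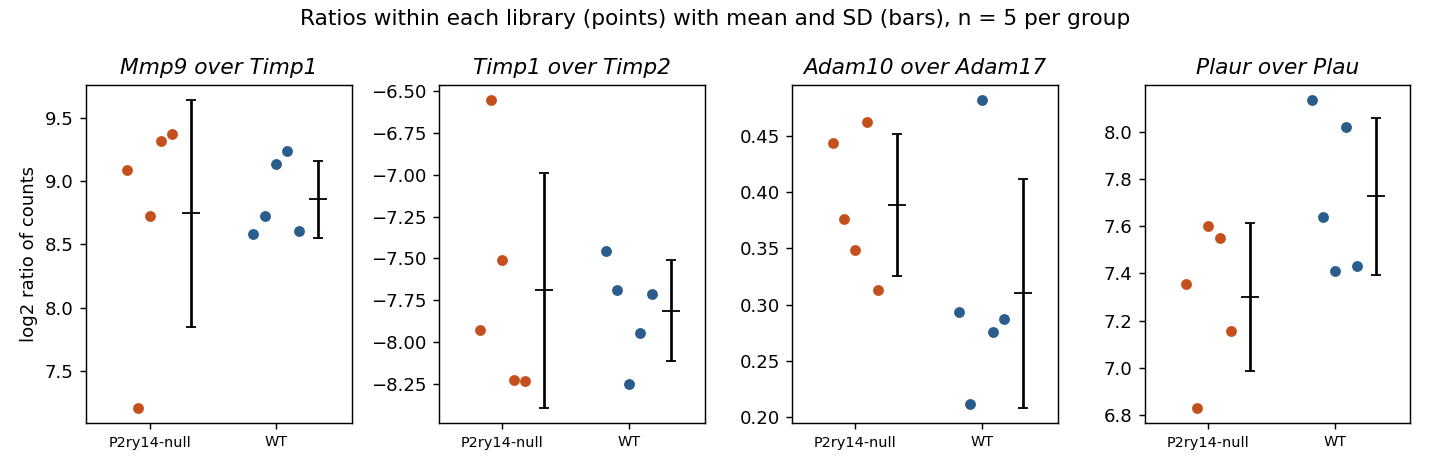
Log2 ratio of read counts within each library (y axis) for 4 gene pairs, with P2ry14-null left of WT, points for libraries and bars for mean and SD (n = 5 each). P2ry14-null library 2 is the lowest library in Mmp9 over Timp1 (7.21) and the highest in Timp1 over Timp2 (-6.56).

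Plaur encodes the urokinase receptor, which holds the plasminogen activator urokinase at the cell surface. Plaur had 671, 648, 641, 642 and 582 CPM in P2ry14-null libraries, against 940, 663, 645, 781 and 679 CPM in WT libraries. WT libraries 1 and 4 were highest, and the 3 other WT libraries lay within 645 to 679 CPM, overlapping P2ry14-null. The mean was 637 ± 32.9 CPM in P2ry14-null and 742 ± 123 CPM in WT, a log2 fold change of -0.22 ± 0.09 (edgeR unadjusted p = 0.035, adjusted p = 0.999). The 95% interval ran from 0.747-fold to 0.988-fold. Without WT library 1 the log2 fold change was -0.12.

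Sums of NF-kB response, heat shock and immediate early genes also had lower means in P2ry14-null, with overlap between the groups. The 11 NF-kB response genes summed to 10088 to 12019 CPM in P2ry14-null and 11799 to 15038 CPM in WT, with the 2 highest sums in WT libraries 1 and 4. All 11 had a log2 fold change below 0, and 0 passed. The median log2 fold change of all genes was 0.003, and the share of all genes below 0 was not counted. Counts of direction within a marker list are therefore not a result about that list. The 6 heat shock genes summed to 392 to 891 CPM in P2ry14-null and 704 to 1025 CPM in WT, again with 6 of 6 below 0 and 0 passing. Their highest sum was in WT library 1, while WT library 4 had the lowest of the WT sums. The 8 immediate early genes, among them Fos and Egr1, summed to 17689 to 22696 CPM in P2ry14-null and 18614 to 23101 CPM in WT. Of these, 7 were below 0 and 0 passed, and the highest sum was in WT library 4. The part of these lists in the Plaur value was not tested.

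The ligand was scarce beside its receptor. Plau, the urokinase gene, had 4.09, 5.69, 3.29, 3.42 and 4.08 CPM in P2ry14-null, against 3.34, 3.32, 3.78, 3.01 and 3.92 CPM in WT. The log2 ratio of Plaur to Plau averaged 7.30 ± 0.32 in P2ry14-null and 7.73 ± 0.33 in WT (SD, n = 5 each). This difference of -0.43 was the largest of the 4 ratios and did not pass (two-sided exact permutation p = 0.087, adjusted p = 0.349; the smallest p this design allows is 0.0079). Serpinb2, the type 2 inhibitor of plasminogen activators, was more abundant per length than Plaur, at 533 RPKM in P2ry14-null and 577 in WT (log2 -0.12 ± 0.09). S100a10, which with annexin A2 binds plasminogen at cell surfaces, stood at 183 RPKM in P2ry14-null and 195 in WT, and the plasminogen-binding enolase Eno1 at 64.8 RPKM in P2ry14-null and 67.3 in WT. Of 16 genes of plasminogen activation 12 were tested, 0 passed and 1, Plaur, had an unadjusted p under 0.05. The median log2 fold change was -0.04, from -0.07 without P2ry14-null library 2 to -0.01 without WT library 1.

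Thbs1 varied most among the abundant members. It had 2705, 1819, 2536, 2689 and 2126 CPM in P2ry14-null libraries, against 2009, 2352, 3144, 3873 and 2920 CPM in WT libraries. WT libraries 3, 4 and 5 exceeded each P2ry14-null library, while WT libraries 1 and 2 fell among them. The coefficient of variation was 16.4% in P2ry14-null and 25.3% in WT, and the log2 fold change was -0.27 ± 0.16 (0.653-fold to 1.06-fold; edgeR unadjusted p = 0.12, adjusted p = 0.999). Without WT library 4 it was -0.13, and without WT library 1 it was -0.37 (edgeR unadjusted p = 0.026, adjusted p = 0.728). The value thus depended on which WT library was left out.

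No gene linked to thrombospondin-1 passed. Of 14 thrombospondin and receptor genes 12 were tested and 0 passed, with 0 at an unadjusted p under 0.05 and a median log2 fold change of 0.01, from 0.0003 without P2ry14-null library 2 to 0.04 without WT library 3. Tgfb1, whose latent product thrombospondin-1 can activate, averaged 388 CPM in P2ry14-null and 409 CPM in WT (log2 -0.07 ± 0.06), and the integrin chain Itgb1 407 CPM in P2ry14-null and 403 CPM in WT. Calr, the calreticulin gene, had a log2 fold change of -0.10 ± 0.08, and the integrin chain Itga4 one of 0.11 ± 0.10. Platelets are a rich source of thrombospondin-1, and 6 platelet markers summed to 97.8 to 111 CPM in P2ry14-null and 98.6 to 115 CPM in WT, with 0 of 4 tested passing. Nearly all of this sum was the integrin chain Itga2b, at 96.2 to 110 CPM in P2ry14-null and 97.7 to 114 CPM in WT, while the platelet chemokine Pf4 had 0.102 to 0.798 CPM in P2ry14-null and 0.109 to 0.221 CPM in WT. Their part in the Thbs1 values was not tested.

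**Figure D4:**
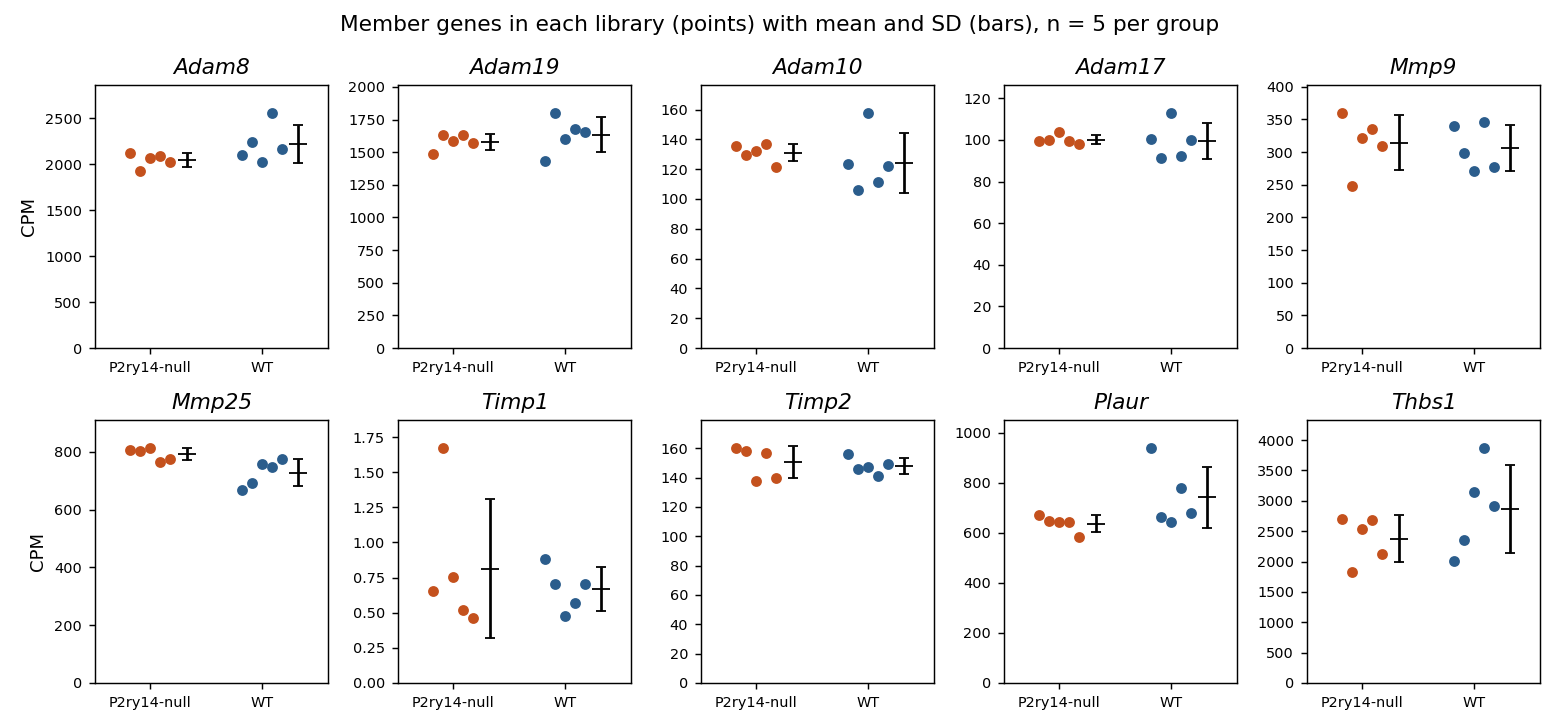
CPM of each of the 10 genes in each library (y axis from 0), with P2ry14-null left of WT, points for libraries and bars for mean and SD (n = 5 each). The groups overlap in every panel; P2ry14-null library 2 is apart in Timp1 (1.67 CPM), and WT libraries 1 and 4 are highest in Plaur (940 and 781 CPM).

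The spread among libraries was narrower in P2ry14-null for 7 of the 10 members on the log2 scale, and for 65.4% of all tested genes without a 0. Adam10 had a coefficient of variation of 4.52% in P2ry14-null and 16.1% in WT, and Adam17 one of 2.14% in P2ry14-null and 8.66% in WT. Timp1 went the other way, at 60.9% in P2ry14-null and 23.0% in WT, as did Mmp9 and Timp2.

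**Figure D5:**
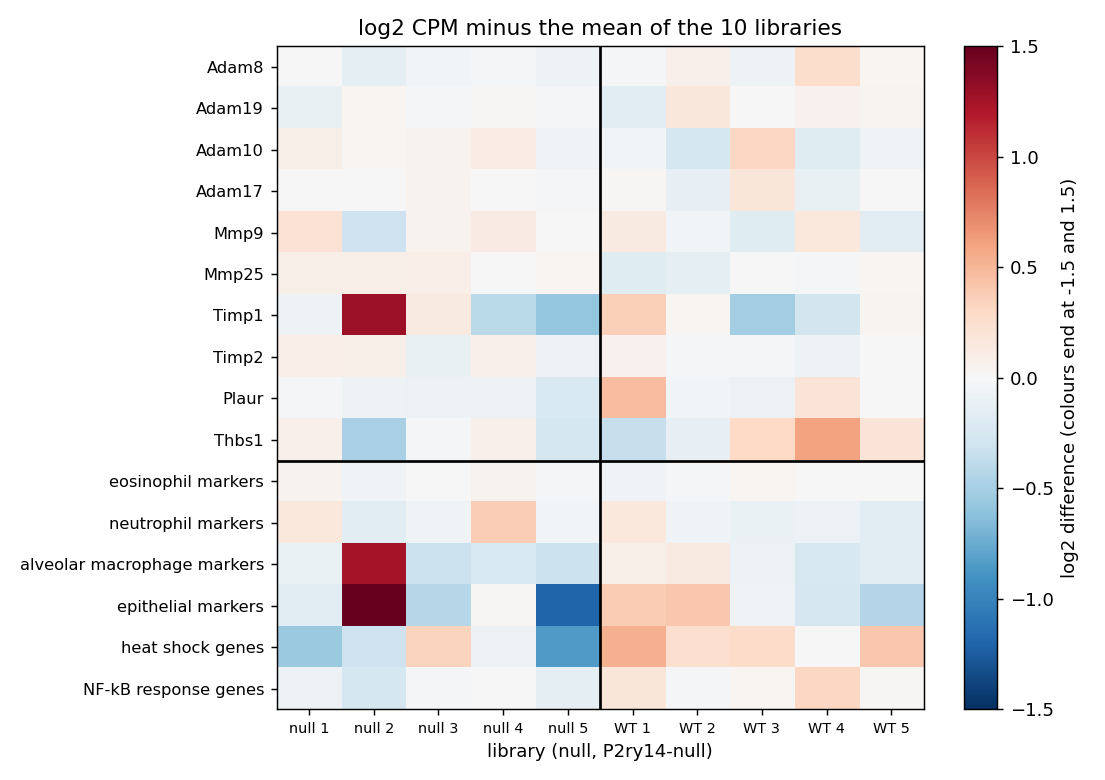
Log2 CPM minus the mean of the 10 libraries (colour) for the 10 genes above the black line and for summed marker lists below it, with P2ry14-null libraries 1 to 5 left of WT libraries 1 to 5. P2ry14-null library 2 stands out in Timp1, alveolar macrophage markers (2155 CPM) and epithelial markers (78.3 CPM).

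Genes of matrix structure and of growth factors completed the pathway lists. All 20 structural matrix and crosslinking genes were tested, 0 passed, and the median log2 fold change was 0.12. This median was 0.02 without P2ry14-null library 2, and -0.04 over the 9 genes that had 1 CPM in 5 libraries. Those above 0 with an unadjusted p under 0.05 were Col6a2, Col6a3 and Eln, all of them low. Over all genes edgeR had 1.46% higher at this p. Eln, the elastin gene, had 1.01, 1.01, 1.09, 1.44 and 0.955 CPM in P2ry14-null, against 0.930, 0.502, 0.778, 0.640 and 0.707 CPM in WT (log2 0.63 ± 0.17; edgeR unadjusted p = 0.0028, adjusted p = 0.999). The groups did not overlap for Eln, nor for Col6a3, at 0.201 ± 0.042 CPM in P2ry14-null and 0.108 ± 0.023 CPM in WT, and 0.648% of all genes tested had no overlap either. The 8 fibroblast markers, among them Eln, summed to 7.3 to 8.8 CPM in P2ry14-null and 6.7 to 8.6 CPM in WT, and their part in these values was not tested. P4hb, a subunit of the collagen prolyl hydroxylase, was the most abundant of the list, at 175 RPKM in P2ry14-null and 186 in WT, followed by the lysyl hydroxylase Plod3 (18.6 RPKM in P2ry14-null and 19.2 in WT) and P4ha1 (12.9 RPKM in P2ry14-null and 14.3 in WT).

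Of 17 growth factor genes 14 were tested, 0 passed and 1, Hbegf, had an unadjusted p under 0.05. Their median log2 fold change was 0.16 with all libraries and -0.07 without P2ry14-null library 2, and -0.05 over the 7 genes that had 1 CPM in 5 libraries. Osm, the oncostatin M gene, was the most abundant, at 595 RPKM in P2ry14-null and 614 in WT (log2 -0.05 ± 0.09), followed by Tgfb1 at 77.0 RPKM in P2ry14-null and 81.1 in WT, and Vegfa at 70.9 RPKM in P2ry14-null and 80.7 in WT. Of 16 matricellular and hyaluronan genes 14 had a row, 11 were tested and 0 passed, with 0 at an unadjusted p under 0.05. The median log2 fold change of the 11 was 0.07; it turned to -0.02 without P2ry14-null library 2, while dropping library 3 of that group gave 0.21. Lgals3, the galectin-3 gene, stood at 293 RPKM in P2ry14-null and 295 in WT, and Tgfbi at 175 RPKM in P2ry14-null and 176 in WT. Spp1, the osteopontin gene, had 61.9 CPM in P2ry14-null library 2, against 9.79 to 19.7 CPM in the other P2ry14-null libraries and 11.2 to 13.1 CPM in WT.

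Of 14 other matrix-degrading enzymes 8 were tested and 0 passed, with 0 at an unadjusted p under 0.05. The median log2 fold change of the 8 was 0.12 with all libraries and -0.27 without P2ry14-null library 2. Ctss, a lysosomal cysteine protease, was the most abundant of them, with 55.6 RPKM in P2ry14-null and 47.3 in WT, ahead of Ctsb (24.5 RPKM in P2ry14-null and 22.4 in WT) and Ctsk (6.03 RPKM in P2ry14-null and 4.88 in WT). The mast cell chymase Cma1 averaged 0.088 CPM in P2ry14-null and 0.14 CPM in WT. The 8 mast cell and basophil markers summed to 69.2 to 90.5 CPM in P2ry14-null and 99.5 to 115 CPM in WT, with no overlap. Among single genes 0.648% of all tested had no overlap, and the share for sums of genes was not counted. Several of the markers were low. Cpa3 averaged 0.351 CPM in P2ry14-null and 0.568 CPM in WT, and Mcpt8 0.312 CPM in P2ry14-null and 0.490 CPM in WT. Fcer1a averaged 0.280 CPM in P2ry14-null and 0.395 CPM in WT, and Ms4a2 0.515 CPM in P2ry14-null and 0.585 CPM in WT. Of the 8, 7 were tested, 7 had a log2 fold change below 0 and 0 passed, beside a median of 0.003 over all genes. Most of the sum was Gata2 (33.9 to 48.7 CPM in P2ry14-null and 41.4 to 52.6 CPM in WT) and Hdc (23.1 to 39.3 CPM in P2ry14-null and 39.2 to 56.7 CPM in WT), and the part of these cells in the Cma1 value was not tested.

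Over the 12 lists together, 140 genes were tested once each and 0 were called by edgeR or DESeq2. In edgeR 9 (6.43%) had an unadjusted p under 0.05, 4 higher and 5 lower, beside 4.13% of all genes. This count was 16 without P2ry14-null library 2, with 2 higher and 14 lower, and among the 14 were Mmp12, Mmp19, Ctsk and Ctss. Leaving out WT library 3 gave 14 such genes and leaving out WT library 4 gave 5, with 0 called in each. The matching share of all genes was not counted in these fits, so these counts are not a result about the lists.

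Positions are those of the deposited table on mm10, with exons from GENCODE vM21 on the same assembly. Adam8 (chromosome 7, 139978932 to 139993121, minus strand) and Plaur (chromosome 7, 24460937 to 24475968, plus strand) share a chromosome, as do Adam19 (chromosome 11, 46054502 to 46147347, plus) and Timp2 (chromosome 11, 118301061 to 118355411, minus), and Mmp9 (chromosome 2, 164940744 to 164955850, plus) and Thbs1 (chromosome 2, 118111876 to 118127133, plus). Adam10 lies on chromosome 9 (70678918 to 70780229, plus), Adam17 on chromosome 12 (21323509 to 21373632, minus), Mmp25 on chromosome 17 (23629169 to 23645269, minus) and Timp1 on chromosome X (20870166 to 20874737, plus). Exons of genes on the opposite strand overlap 4 of them: 311 bases of Adam17 with Iah1, 587 and 480 bases of Adam19 with Gm16033 and Gm16034, 208 bases of Thbs1 with Gm29233 and 46 bases of Adam8 with Gm16201. The strand setting of the counting is not given in the sources used here, so reads in these bases could belong to either gene.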

How the data were processed

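RNA of sorted lung eosinophils was sequenced in 10 libraries, grouped by title as P2ry14-null or WT (5 each). The authors deposited raw read counts per gene. Tools named in the submitters' processing notes were featureCounts 1.5.0-p1 (Subread), STAR 2.5 and DESeq2, with mm10 as the build; the annotation release is not given in the sources used here. RNA was prepared with a TruSeq kit, per the labels' protocols. Counts were tested with edgeR 4.0.16 in R 4.3.3 (TMM, default low-count filter, genotype alone, quasi-likelihood F test, Benjamini-Hochberg over 15586 genes, threshold 0.05). The SE of a log2 fold change is its size over the root of F, and intervals are at 95%. RPKM divides TMM-scaled CPM by exon length. Ratios of counts (offset 0.5) were tested by exact permutation (two-sided, 252 assignments), adjusted over 4 ratios. Alternatives were DESeq2 1.42.0, its size factors, other filters, a replicate block and leaving out each library. On counts simulated for this comparison over 15586 genes, edgeR made 143 calls, 9 of them false. It found 34% of the 50 genes given a 1.25-fold change, 58% at 1.5-fold, 82% at 2-fold and 94% at 4-fold (50 each). The data gave 6 calls, and with fewer calls the adjusted threshold is harder to pass. The simulation also held no library apart such as P2ry14-null library 2. These percentages may therefore be too high for the data. A count of 0 allows up to 3 reads, 0.0165 to 0.0445 CPM by library, for counting error only. Chi-square per gene was 24.2 or more for each pair within a group, so no library held the same reads as another of its group. Pairs across groups were not checked. The check cannot tell whether 2 libraries came from the same animal. The members and lists were chosen with earlier results of these data known. The text names all members, P2ry14 and, per list, called genes, the 3 highest by RPKM and the 1 with the smallest p; other genes were named after their values were seen.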

Additional observations from a re-analysis of the deposited data

Results flagged for a closer look

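Timp1 in P2ry14-null library 2 stood apart from the other 4 P2ry14-null libraries, at 1.67 CPM against 0.462 to 0.754 CPM. The gap to the nearest library, divided by the range of the group, was 0.76, above the 95% critical value of 0.71 for 5 samples. Of 28 groups of 5 values checked, 10 genes and 4 ratios in each genotype, this was the 1 flagged, and chance alone flags about 1 in 20 groups.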

How the results depend on the processing

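Over 15 alternatives, 0 of 10 members was called in any, and 9 members were tested in the fit that asked for 1 CPM in 5 libraries, which Timp1 missed. The count over all genes was 6, 19 with DESeq2 and 3 to 5 with single libraries left out (3 without P2ry14-null library 1, 2, 3 or 5 or WT library 4). Signs turned for Adam17 without the low-count filter (-0.0015), for Adam17 (-0.0194 to 0.058), Mmp9 (-0.0147 to 0.113) and Timp1 (-0.161 to 0.457) with single libraries left out, and likewise for the ratios Mmp9 over Timp1 (-0.269 to 0.273) and Timp1 over Timp2 (-0.162 to 0.257). The other ratios ran from 0.054 to 0.121 (Adam10 over Adam17) and from -0.507 to -0.311 (Plaur over Plau), none past the threshold. Deviations of libraries with the same number showed little correlation (-0.0933 to 0.094). The labels do not say whether the number pairs libraries, and these correlations cannot exclude a pairing. With the replicate block 6 genes and 0 members were called, and Mmp25 had an edgeR unadjusted p of 0.060 and Plaur 0.019. The block turned the median of the matrix metalloproteinases (-0.011), of the matricellular genes (-0.006) and of the other degrading enzymes (-0.007), and 0 of their genes were called. Leaving out single libraries moved log2 fold changes by over 1.5 times, without a call, for Plaur (-0.120 without WT library 1), Thbs1 (-0.128 without WT library 4), Adam8 (-0.056 without WT library 4), Adam10 (0.179 without WT library 3, 0.027 without WT library 2), Adam19 (-0.091 without WT library 1, -0.010 without WT library 2) and Timp2 (0.003 without P2ry14-null library 1, 0.065 without P2ry14-null library 3). Depth limits Timp1, which rested on 44 to 258 reads per library.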
